A study of Mus musculus with 10 samples.

Results

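The replication-dependent histone genes were followed in mouse blood under 2 ways of curtailing sleep. Members were all genes of the count table whose symbol begins with Hist1h, Hist2h, Hist3h or Hist4h, with pseudogenes left out, which gave 67 of 32285 genes. They comprised 6 genes for the linker histone H1, 18 for H2A, 18 for H2B, 12 for H3 and 13 for H4. The Hist1 cluster on chromosome 13 held 54 of them, the Hist2 cluster on chromosome 3 held 10, the Hist3 cluster on chromosome 11 held 2, and Hist4 on chromosome 6 held 1.

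The mice were of strain C57/BL6J, and RNA came from retro-orbital blood labelled as leukocytes. SD, sleep deprivation, lasted 6, 12, 24 or 48 h, SASD, described as an earlier reported method of sleep restriction, lasted 6, 12, 24, 48 or 120 h, and Con was the control at 0 h. Each group was 1 library made from pooled blood RNA of 3 mice, so no group had a replicate. The sources used here do not give how SD and SASD were carried out, the age and sex of the mice, the hour of sampling or whether RNA with a poly(A) tail was selected.

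Replication-dependent histone genes supply the proteins that package newly made DNA, and most of their RNA is made while a cell copies its genome. Their messenger RNAs are known for ending in a conserved stem-loop, bound by SLBP, in place of a poly(A) tail. Some of these genes also yield transcripts that run past the stem-loop to a poly(A) signal, a form described in differentiated cells, red cell precursors among them. H2A, H2B, H3 and H4 form the core of the nucleosome, and H1 binds the DNA that links nucleosomes.

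The stem-loops are shown because they separate the H4 genes from the other types. In the transcripts of GENCODE release 21 for mouse (mm10), 44 of the 67 members (65.7%) held the stem-loop motif (GG, any 2 bases, CTTTT, any base, AG, any 2 bases, CC) on the sense strand, and the 6 stem bases paired throughout in all 44. The same motif occurred in 34 of 21558 other protein-coding genes (0.158%). In the DNA letters below, each line runs 5′ to 3′, capitals mark the 4-base loop, and the position given is that of the 16-base stem-loop without its flanks.
Hist1h1c (H1, chr13:23739512-23739527, plus strand): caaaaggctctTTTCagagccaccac
Hist1h2ac (H2A, chr13:23683477-23683492, minus strand): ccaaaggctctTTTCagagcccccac
Hist3h2a (H2A, chr11:58955172-58955187, plus strand): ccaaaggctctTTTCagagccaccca
Hist1h3e (H3, chr13:23561903-23561918, minus strand): aaaacggctctTTTAagagccacctc
Hist1h4i (H4, chr13:22040966-22040981, minus strand): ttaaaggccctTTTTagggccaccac
Hist1h4j (H4, chr13:21735437-21735452, plus strand): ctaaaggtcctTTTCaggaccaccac
All 33 H1, H2A, H2B and H3 genes with a match carried the stem seen in Hist1h1c, and none of the 11 H4 genes with a match did. Of these H4 genes, 9 carried the stem of Hist1h4i and 2 that of Hist1h4j. The loop TTTC was the most frequent, and it stood in 26 members with the first stem, 7 with the second and 2 with the third.

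The start regions differed between types as well. RefSeq promoters (GRCm38.p6, from 250 bases before to 50 after the start) were matched for 61 members, and Hist1h2ap, Hist1h2bc, Hist1h3a, Hist1h3f, Hist2h2be and Hist2h4 were not matched. Motifs were searched as exact letters on both strands. The CCAAT box was found in all 49 matched H1, H2A, H2B and H3 promoters and in 3 of 12 H4 promoters, against 37.9% of the 27025 promoters in the table. The octamer ATTTGCAT occurred in 7 of 17 H2A and 6 of 16 H2B promoters and in no matched H1, H3 or H4 promoter (1.75% of all promoters). The motif AAACACA, described in H1 promoters, was present in 5 of 6 H1 promoters (7.14% of all promoters), 2 H2A and 2 H2B promoters. TATAAA was found in 35 of the 61 (57.4%, against 14.2% of all promoters). Where an H2A and an H2B gene start head to head, their windows can overlap, and a site can then count for both. The H2A and H2B counts are therefore not independent. Hist1h2ae and Hist1h2bg, for example, have overlapping windows and both held the octamer.

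Stretches upstream of 2 abundant members are shown as examples, 5′ to 3′ on the gene's strand with motif letters in capitals. Hist1h2ac and Hist1h2bc start head to head with 250 bases between them, one of 12 such H2A and H2B pairs, so the first stretch lies between both genes.
Hist1h2ac (chr13:23683960-23684189, minus strand; in order CCAAT box, octamer and CCAAT box reversed, CCAAT box and TATA box forward): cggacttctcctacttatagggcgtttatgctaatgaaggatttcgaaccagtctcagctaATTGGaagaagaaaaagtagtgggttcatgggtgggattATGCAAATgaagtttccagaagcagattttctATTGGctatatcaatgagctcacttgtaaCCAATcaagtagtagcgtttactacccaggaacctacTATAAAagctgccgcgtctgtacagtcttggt
Hist1h1c (chr13:23738607-23738806, plus strand; AAACACA, then CCAAT box): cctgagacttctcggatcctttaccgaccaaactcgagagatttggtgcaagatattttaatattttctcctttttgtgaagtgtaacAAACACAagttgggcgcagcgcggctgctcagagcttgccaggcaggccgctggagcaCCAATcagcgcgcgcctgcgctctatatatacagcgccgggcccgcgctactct
A match describes letters in this window and is not evidence of binding.

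Total counts per library ran from 7825120 to 27501393, Con and SASD 48 h being the deepest. Haemoglobin genes took 0.275% to 0.727% of counts in Con, SD 48 h and SASD 48 h and 3.57% to 6.96% in the other 7 libraries. Olfactory receptor genes, which serve as a background signal in blood, were higher in those same 3 libraries, at 51.1 to 236 per 1000000 counts against 15.2 to 20.0. The libraries are therefore described below with this division in view. Markers shared by leukocytes (Ptprc, Coro1a, Laptm5, Lcp1 and Cd52) were abundant everywhere, at a summed 5216 to 7255 CPM. In blood RNA, fewer cells of a type and less RNA per cell cannot be told apart.

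Levels below are CPM, the counts of a gene per 1000000 counts of the library scaled with edgeR's TMM factors, and levels of different genes are compared per kilobase of annotated exon. Of the 67 members, 25 averaged at least 10 counts over the 10 libraries, 36 had a mean above 0 and under 10, and 6 had no count in any library. The 6 were Hist2h2aa1, Hist2h2aa2, Hist2h3b, Hist2h2bb, Hist1h2ap and Hist1h2ba, the last a testis form of H2B. In the first 4, every exon base overlaps another gene of the table, so the authors' counting could not assign reads to them. Similar copies also limit the others: in 30 members, over 50% of the 50-base words occurred in a transcript of another gene, and in 8 members over 90%. Members averaging under 10 counts, 42 with those at 0, are described one by one only where they rank among the 4 highest of their type or in a test below. In Con, 36 of the 67 exceeded the 95th percentile of the olfactory receptor genes per kilobase (0.190 CPM), among them 22 of the 25.

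Histone RNA was dominated by a few genes. Hist1h1c, a linker histone made in most somatic tissues, made up 49.2% of all member counts (40.6% to 54.3% by library), and the 5 most abundant members made up 85.4%. Per kilobase, its mean of 293 CPM was followed by 189 CPM for Hist1h2bc (H2B), 91.0 CPM for Hist1h4m (H4), 53.2 CPM for Hist1h2bn (H2B), 48.8 CPM for Hist1h4i (H4) and 17.1 CPM for Hist1h2ac (H2A). The leading H3 gene per kilobase, Hist1h3i, reached 5.55 CPM. Hist1h2bn, Hist1h3i and Hist1h4m share 86.5%, 87.6% and 89.8% of their 50-base words with other genes, so their levels are uncertain. The other H1 genes were low, Hist1h1e having a mean of 1.92 CPM per kilobase, Hist1h1a 0.293, Hist1h1b 0.265 and Hist1h1d 0.231.

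The summed level of all members differed several-fold between libraries. It was 378 CPM in Con, 1120.4, 1358, 707 and 454 CPM in SD 6, 12, 24 and 48 h, and 1341, 1512, 1390.0, 278 and 597 CPM in SASD 6, 12, 24, 48 and 120 h. As a share of all counts, before any scaling, members took from 0.0318% in SASD 48 h to 0.146% in SASD 12 h, with exact Clopper-Pearson 95% intervals of at most 0.00244 percentage points to either side. Con and both 48 h libraries were the 3 lowest. SD 24 h and SASD 120 h lay between them and the 5 libraries at 6 h, 12 h and SASD 24 h. The makeup by type moved less: H1 took 41.4% (SASD 120 h) to 54.9% (SD 12 h) of member counts, H2B 27.2% to 36.6%, H4 9.53% to 13.1%, H2A 6.10% to 8.37% and H3 1.53% to 2.42%.

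**Figure D1:**
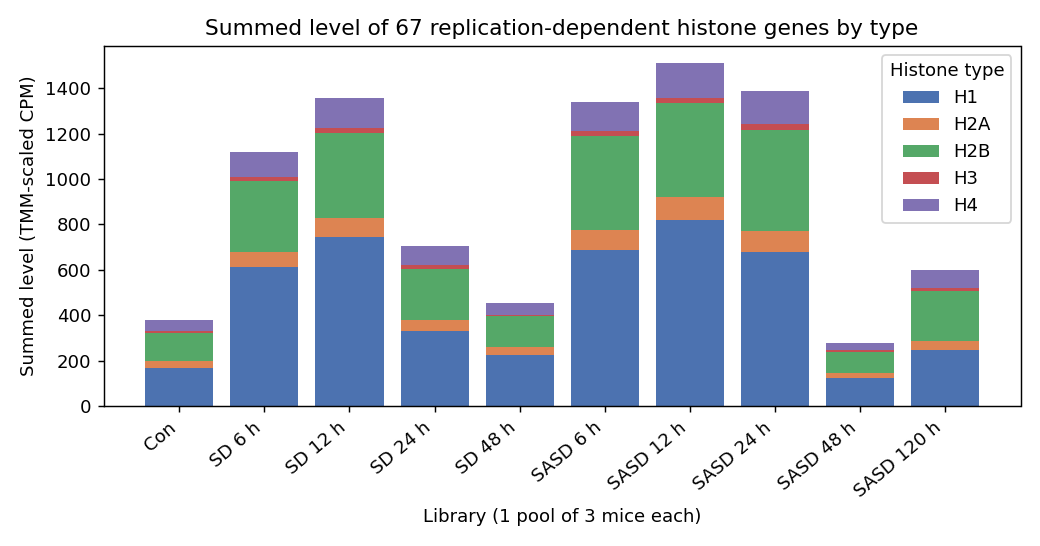
Summed level of the 67 histone genes in each library (vertical axis, TMM-scaled CPM from 0), stacked by histone type (colours), 1 pool of 3 mice per bar with no error between mice. Bars run from 278 CPM in SASD 48 h to 1512 CPM in SASD 12 h, and H1 is the largest segment in each.

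Hist1h1c stood at 163 CPM in Con, 603, 737, 323 and 219.8 CPM in SD 6, 12, 24 and 48 h, and 681, 816.5, 672, 119.8 and 242 CPM in SASD 6, 12, 24, 48 and 120 h. All 7 other libraries were above Con and both 48 h libraries, though SASD 120 h exceeded SD 48 h only slightly. Hist1h1e, another somatic H1, varied far less, from 2.64 CPM in SASD 48 h to 5.44 CPM in SD 6 h, and the same 2 sets of libraries overlapped. Its counts were small, from 20 in SASD 24 h to 91 in Con. Hist1h1e overlaps Hist1h2be in 496 of its 1930 exon bases, so reads in the overlap were not counted for it.

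Among H2A genes, Hist1h2ac stood at 17.2 CPM in Con, 49.8, 63.1, 31.2 and 22.4 CPM in the SD libraries in order of time, and 67.1, 75.4, 64.4, 10.6 and 22.2 CPM in the SASD libraries. It was again highest at 6 h, 12 h and SASD 24 h, and SASD 120 h was level with SD 48 h. Hist3h2a, from the small Hist3 cluster, was much flatter, at 11.6 CPM in Con, 13.9, 15.1, 13.8 and 10.4 CPM in SD, and 15.1, 20.7, 19.1, 10.6 and 14.1 CPM in SASD. Its 3 lowest values were also in Con and both 48 h libraries. Hist3h2a overlaps Trim17, so reads in the overlap were not counted for it. Hist1h2ae and Hist1h2ad were low, at 0.397 to 2.17 CPM and 0.188 to 1.81 CPM.

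Hist1h2bc, the most abundant H2B gene, stood at 92.7 CPM in Con, 252, 303, 177 and 104 CPM in SD, and 340, 338, 359, 57.2 and 159 CPM in SASD, with Con and both 48 h libraries below all others. Hist1h2bn followed the same order of sets, at 7.70 CPM in Con, 19.6, 31.2, 16.4 and 7.12 CPM in SD, and 28.7, 32.0, 39.8, 5.39 and 14.6 CPM in SASD. Hist2h2be, an H2B gene of the Hist2 cluster, did not share this pattern. It stood at 15.1 CPM in Con, 15.9, 11.7, 15.02 and 13.9 CPM in SD, and 15.4, 16.5, 17.4, 19.1 and 21.03 CPM in SASD, its 2 highest values being in SASD 48 h and SASD 120 h. Hist3h2ba, also H2B, ranged from 1.34 CPM in Con to 4.22 CPM in SASD 120 h, with overlapping sets.

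The contrast between these H2B genes holds without any scaling of libraries. Counts of Hist1h2bc over Hist2h2be within a library were 6.15 (95% counting interval 5.59 to 6.77) in Con, 7.48 (6.45 to 8.70) in SD 48 h and 3.00 (2.72 to 3.31) in SASD 48 h. The ratio was 7.57 in SASD 120 h, 11.8 in SD 24 h and 15.8 to 25.9 in the 5 libraries at 6 h, 12 h and SASD 24 h. By contrast, Hist1h2ac over its head-to-head neighbour Hist1h2bc kept a narrow range of 0.139 (SASD 120 h) to 0.223 (SASD 12 h), and Hist1h4i over Hist1h4m ran from 0.835 (SASD 24 h) to 1.30 (Con). Each of these ratios varied far less than the levels themselves, though the intervals at the extremes did not overlap, at 0.121 to 0.160 and 0.205 to 0.242 for the first and 0.721 to 0.967 and 1.16 to 1.47 for the second.

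The H3 genes were scarce. Hist1h3d stood at 2.17 CPM in Con, 5.06, 5.64, 3.76 and 2.46 CPM in SD, and 5.42, 8.36, 8.26, 0.986 and 4.04 CPM in SASD. Hist1h3e was lower still, at 0.153 CPM in Con, 1.15, 2.22, 2.25 and 0.342 CPM in SD, and 3.04, 3.15, 3.37, 0.247 and 1.88 CPM in SASD. In both genes Con and the 48 h libraries were the lowest, though for Hist1h3e Con, SD 48 h and SASD 48 h held only 5, 5 and 7 counts. Hist1h3i (0.775 to 4.28 CPM) and Hist2h3c1 (3.01 to 6.18 CPM) had the same 3 lowest libraries.

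H4 protein is encoded by many genes, which differ in how much sequence they share. The part of 50-base words found in other genes was 28.9% for Hist1h4i, 89.8% for Hist1h4m and 1.01% for Hist2h4. Hist1h4i stood at 19.2 CPM in Con, 42.1, 50.3, 30.7 and 19.2 CPM in SD, and 45.8, 56.7, 52.0, 11.1 and 27.7 CPM in SASD. Hist1h4m stood at 14.7 CPM in Con, 39.1, 49.6, 29.4 and 18.5 CPM in SD, and 50.5, 64.9, 62.3, 10.5 and 26.6 CPM in SASD. Both were lowest in Con and at 48 h and highest in SASD 12 h. Hist1h4n (1.27 to 10.7 CPM) and Hist1h4h (1.69 to 8.47 CPM) also had no overlap between the sets. Hist2h4 did overlap, from 0.890 CPM in SD 48 h to 2.53 CPM in SASD 120 h.

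Of the 25 members averaging at least 10 counts, 18 were higher in every one of the 7 libraries than in Con and both 48 h libraries, against 9.40% of the 13982 genes past the same minimum. None was lower in all 7 (7.68% of genes). By type these were 1 of 3 H1 genes, 2 of 3 H2A, 4 of 7 H2B, 5 of 5 H3 and 6 of 7 H4. Among the H3 genes, Hist1h3e and Hist1h3f passed the minimum of 10 only through the 7 libraries where they were higher. Their counts in Con, SD 48 h and SASD 48 h were 5, 5 and 7 for Hist1h3e and 6, 3 and 5 for Hist1h3f. Hist1h3f held only 4 counts in SASD 120 h. The 7 members with overlap were Hist1h1d, Hist1h1e, Hist1h2ac, Hist1h2bj, Hist2h2be, Hist3h2ba and Hist2h4. The count was 18 with DESeq2 size factors, 17 with total counts (Hist3h2a then overlapped) and 19 with total counts lacking haemoglobin genes (Hist1h2ac was then added). The sets follow the haemoglobin share and not a treatment, so this count is a description with no test.

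**Figure D2:**
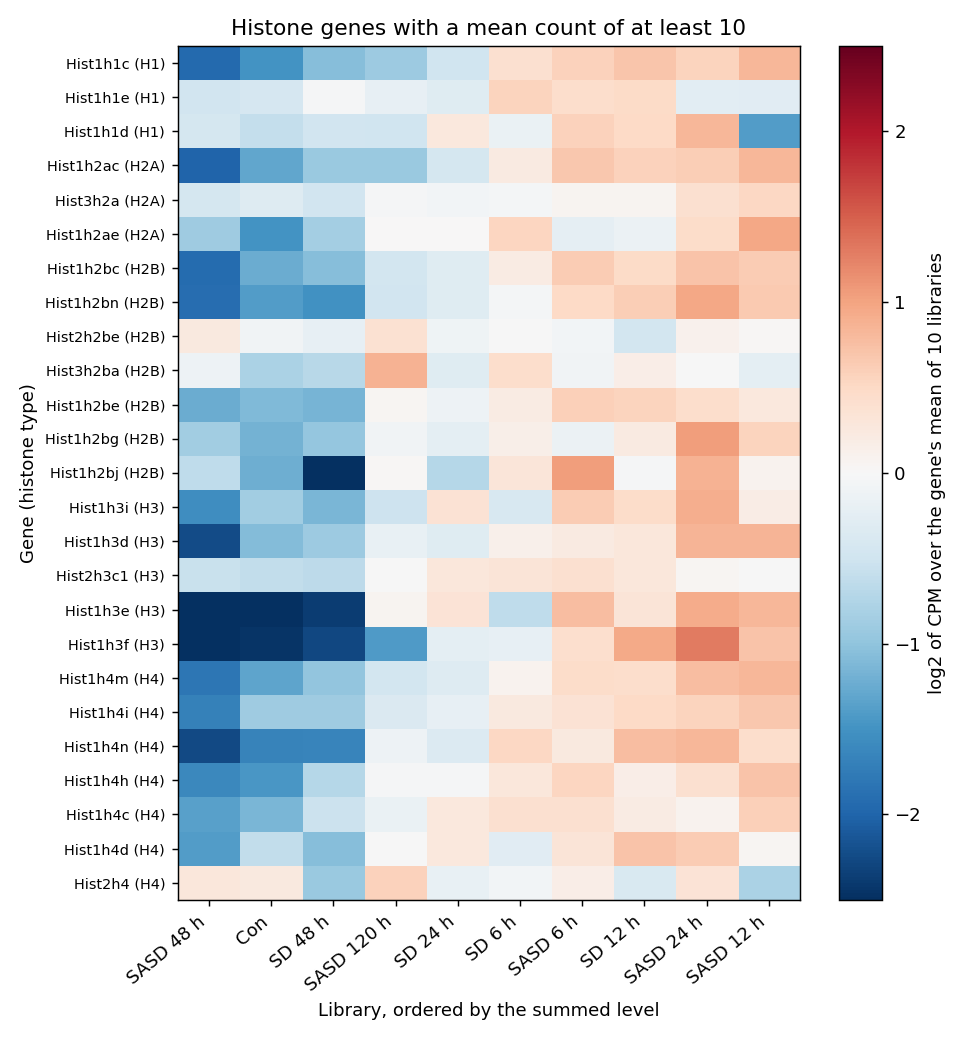
The 25 histone genes averaging at least 10 counts (rows, by type) in the 10 libraries (columns, ordered by the summed histone level), coloured by the log2 of CPM over each gene's mean of the 10 libraries. Most rows are blue in SASD 48 h, Con and SD 48 h, while Hist2h2be stays near its mean throughout and Hist2h4 is low in SD 48 h but not in Con or SASD 48 h.

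The annotated 3′ end went with which members had counts. In 22 members the annotation ran over 100 bases past the stem-loop, and 17 of these averaged at least 10 counts; they held 65.6% of member counts, with a median level of 2.36 CPM per kilobase. In another 22 members it ended within 100 bases, and 4 of these averaged at least 10 counts, with 5.75% of counts and a median of 0.518 CPM per kilobase. A poly(A) signal (AATAAA or ATTAAA in the last 50 bases) was found in 11 of the first 22 and 2 of the second 22. Of 8 members with an annotated 3′ end but no stem-loop match, the spliced Hist1h2bc and Hist2h2be averaged at least 10 counts, and the class held 26.02% of member counts. The remaining 15 members had no annotated 3′ end (2 averaging at least 10 counts, 2.63% of counts). The median share of 50-base words found in other genes was 19.2% in the first class and 59.9% in the second. Annotated exons spanned 614 to 7425 bases in the first class and 391 to 706 in the second. Longer exons pass a count minimum more easily, while the medians per kilobase take length into account. The part of shared words and of exon length in the difference was not tested. Hist1h4m, annotated to end 3 bases past its stem-loop, Hist1h4n and Hist1h4h were in the second class but reached 91.0, 14.1 and 11.0 CPM per kilobase. Hist3h2a, whose level varied little, ran 1643 bases past the stem-loop, and Hist1h1c and Hist1h2ac, which varied several-fold, ran 840 and 2010 bases past it.

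**Figure D3:**
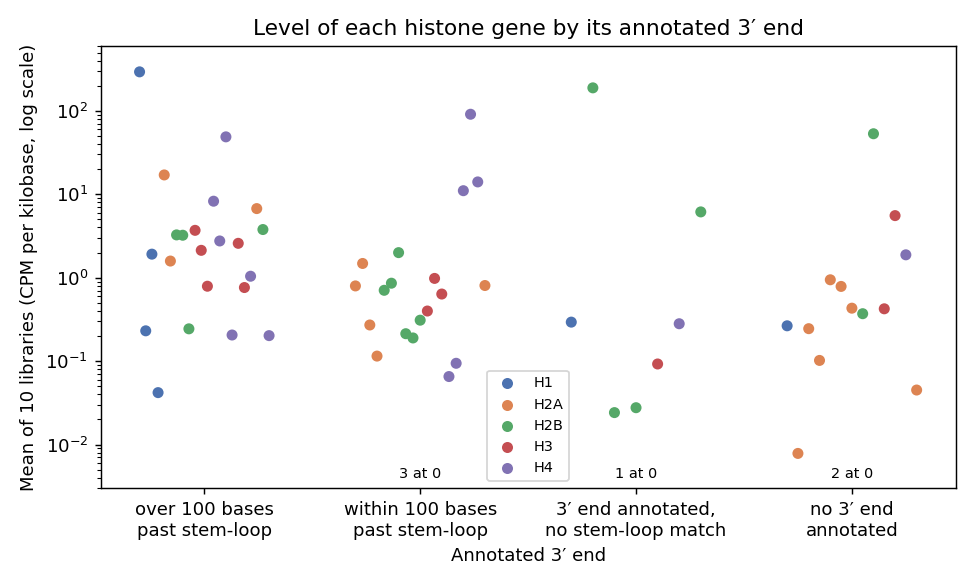
Mean level of each member over 10 libraries (vertical axis, CPM per kilobase, log scale) by its annotated 3′ end (horizontal axis), coloured by type, with the 6 members without a count given as numbers. The class running over 100 bases past the stem-loop has a median of 2.36 against 0.518 in the class ending within 100 bases.

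SD and SASD were then compared at each shared time. The summed histone level in SD over SASD was 0.835 at 6 h (95% counting interval 0.815 to 0.856), 0.898 at 12 h (0.877 to 0.920), 0.509 at 24 h (0.493 to 0.524) and 1.63 at 48 h (1.58 to 1.69). SD was thus the lower library at 6, 12 and 24 h and the higher one at 48 h. The intervals cover counting error only, and with 1 pool per group the difference between conditions has no replicate check.

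At 24 h, 17 members averaged at least 25 counts in the pair. Of these, 7 were at least 2-fold lower in SD 24 h (3.30% of genes), namely Hist1h1c, Hist1h2ac, Hist1h2bc, Hist1h2bn, Hist1h3d, Hist1h4m and Hist1h4n, and none was at least 2-fold higher (4.04% of genes). In all, 15 had a ratio below 1, against 46.8% of genes. The lowest ratio was 0.413 (0.339 to 0.502) for Hist1h2bn, followed by 0.447 (0.305 to 0.651) for Hist1h4n, 0.455 (0.294 to 0.697) for Hist1h3d, 0.472 (0.406 to 0.548) for Hist1h4m and 0.481 (0.460 to 0.503) for Hist1h1c. Hist2h3c1 at 1.17 (0.751 to 1.85) and Hist1h4c at 1.14 (0.788 to 1.66) were above 1, with intervals that included 1. Hist2h2be stood at 0.861 (0.673 to 1.10). The median over the 17 members was 0.676, against 1.02 over all genes of that pair.

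At 48 h the order was the other way for most members. Of 19 measured, 13 had a ratio above 1, with a median of 1.37 against 1.002 over all genes. Hist1h3d at 2.499 (1.48 to 4.25) and Hist1h2ac at 2.10 (1.79 to 2.47) were at least 2-fold higher in SD 48 h (4.47% of genes). Hist1h4h at 1.86, Hist1h1c at 1.84 (1.75 to 1.93) and Hist1h2bc at 1.82 (1.69 to 1.95) came next. Hist2h4 at 0.428 (0.215 to 0.790) was the only member at least 2-fold lower (2% of genes), and Hist2h2be at 0.729 (0.618 to 0.859) was also lower in SD 48 h. Hist3h2a differed little, at 0.982 (0.802 to 1.20).

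At 6 h, 13 of 18 measured members were below 1 (46.6% of genes) and at 12 h 13 of 19 (49.9% of genes), with medians of 0.903 and 0.887. Hist1h3i at 6 h, at 0.488 (0.262 to 0.880), was the only member at least 2-fold lower at those times (0.988% of genes at 6 h, 0.151% at 12 h), and none was 2-fold higher (0.139% and 2.93%). Hist1h1e was the highest at 12 h, at 1.69 (1.05 to 2.78). Of the 16 members measured in all 4 pairs, 12 were below 1 at 24 h and above 1 at 48 h (22% of 10924 genes measured in all 4), and 8 of these were also below 1 at 6 and 12 h (8.33% of genes).

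**Figure D4:**
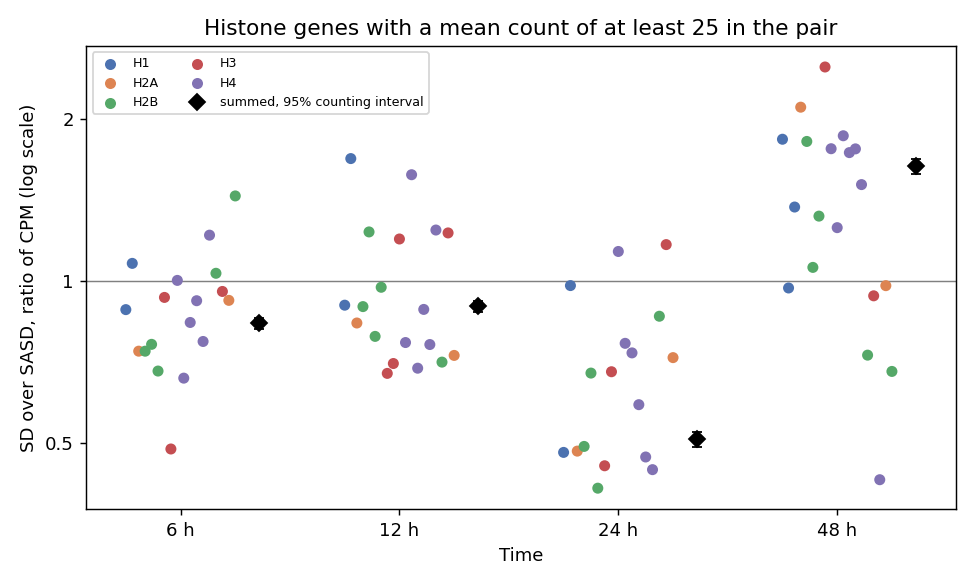
SD over SASD ratio of CPM (vertical axis, log scale) at each shared time (horizontal axis) for histone genes averaging at least 25 counts in the pair, coloured by type, with the summed ratio and its 95% counting interval as a black diamond. The diamond lies at 0.835, 0.898, 0.509 and 1.63, and 15 of 17 points at 24 h lie below 1.

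Within each method the levels also moved between times. The summed level in SD 24 h was 0.631 times that in SD 6 h (0.613 to 0.650), with 16 of 17 measured members below 1 (50.1% of genes) and none at least 2-fold lower (0.531%). In SASD the 24 h level was 1.04 times the 6 h level (1.01 to 1.06), with 7 of 18 members below 1 (47.8% of genes) and none at least 2-fold lower (1.67%). SASD 120 h stood at 0.430 times SASD 24 h (0.416 to 0.444), with 14 of 17 members below 1 (45.5% of genes) and 6 at least 2-fold lower (6.58%). Against the shared Con library, SD 48 h stood at 1.20 (1.16 to 1.24) and SASD 48 h at 0.735 (0.714 to 0.756). In these, 9 of 20 and 16 of 22 members were below 1 (46.8% and 45.7% of genes), and 1 member of each was at least 2-fold lower (8.38% and 7.98%).

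No histone gene was called in the fits over libraries. SD against SASD over the 4 shared times with time as a block tested 26 members: edgeR's quasi-likelihood test with Benjamini-Hochberg adjustment called none (0% of 13370 genes), and 1 had an unadjusted p below 0.05 (8.09% of genes). That member was Hist1h2bj, with a log2 ratio of -0.998 ± 0.406 (SE; adjusted p = 0.590). Over the 26, 21 estimates were below 0 and the median log2 ratio was -0.20, against 0.00 over all genes. Hist1h1c had a log2 ratio of -0.14 ± 0.27 (SE; edgeR adjusted p = 0.919) and Hist1h2bc one of -0.20 ± 0.27 (SE; edgeR adjusted p = 0.876). Without the 48 h pair the median was -0.38 and 8 of 26 members had an unadjusted p below 0.05 (8.54% of genes), still with none called.

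Trends were slopes per doubling of 1 plus hours divided by 6, with Con at 0 h. For SD, 24 members were tested, none was called (0.124% of genes), and 1, Hist4h4, had an unadjusted p below 0.05 (10.4% of genes). For SASD, 27 were tested, none was called (0% of genes), and Hist2h2be and Hist3h2ba had an unadjusted p below 0.05 (3.03% of genes). The difference between the slopes was fitted without SASD 120 h and with a shared Con level, so it is not the difference of the 2 slopes above. In it, 28 were tested, none was called (0.410% of genes), and Hist2h2be had an unadjusted p below 0.05 (7.58% of genes), with a SD minus SASD slope of -0.14 ± 0.05 (SE; edgeR adjusted p = 0.499). DESeq2 also called no member in the 4 fits, but called 169, 456, 0 and 272 of the 13370, 14562, 14602 and 14138 genes. Of members, 0, 0, 0 and 1 had an unadjusted DESeq2 p below 0.05, against 795, 1426, 395 and 1036 of all genes. With limma-voom no member was called, against 0, 69, 0 and 122 of all genes. Its unadjusted p was below 0.05 for 1, 1, 2 and 2 members, and for 1161, 2006, 771 and 1394 of all genes. The SD slope depended on single libraries: its median over members was -0.02 with all 5, -0.53 without Con and 0.47 without SD 48 h. Without Con, 12 of 24 members had an unadjusted p below 0.05 (17.2% of genes), and without SD 48 h, 3 of 26 did (21.6% of genes).

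Other genes of the histone system were counted from lists, where the shares of all genes higher or lower in all 7 libraries (9.40% and 7.68%) are the background. Of 16 variants listed as replication-independent, 9 averaged at least 10 counts, and 3 of them were higher in all 7 libraries than in Con and both 48 h libraries. The summed level of the list was 1677 to 1963 CPM against 1204 to 1605 CPM. Of 23 measured factors for histone RNA transcription, processing and decay, such as Slbp and Npat, 2 were higher and 4 lower in all 7, and the sum was 1375 to 1521 CPM against 1503 to 1605 CPM. Of 16 histone chaperones, none was higher and 6 were lower in all 7. Of 35 genes of DNA replication, which are active in S phase along with these histone genes, 1 was higher and 2 were lower in all 7, and their sum was 708 to 876 CPM against 657 to 737 CPM. E2f2, a transcription factor, was the one higher gene, at 120.4 to 356 CPM against 88.2 to 113 CPM, and the other 34 summed to 508 to 588 CPM in the 7 libraries against 569 to 623 CPM. None of the measured genes of these 4 lists was called in any of the 4 fits (edgeR, adjusted p below 0.05), with 0 to 3 genes of a list at an unadjusted p below 0.05 in a fit. A list of 9 RNAs, chosen for forms without a poly(A) tail, matched only Malat1, Neat1 and Rmrp. Its summed level, nearly all Malat1 and Neat1, ran from 2418 CPM in SD 48 h to 4252 CPM in SASD 24 h. Whether these counts came from RNA without a tail was not tested.

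Platelet markers moved with the histone genes, while red cell markers shared their 3 lowest libraries but not the order among the other 7. The platelet list (Ppbp, Pf4, Gp9, Itga2b and Gp1bb) summed to 2316 CPM in Con, 4630, 5525, 3344 and 2415 CPM in SD 6, 12, 24 and 48 h, and 5812, 6115, 8278, 1243 and 2656 CPM in SASD 6, 12, 24, 48 and 120 h. The 3 libraries low in histone RNA were the 3 lowest here as well. Of the 4 platelet genes averaging at least 10 counts, 3 were above them in all 7. Its SD over SASD ratios were 0.797, 0.903, 0.404 and 1.94 at 6, 12, 24 and 48 h, beside 0.835, 0.898, 0.509 and 1.63 for the histone genes. Red cell and reticulocyte markers were higher in all 7 for 9 of 10 genes, with sums of 36355 to 95520 CPM against 2841 to 6946 CPM. The 2 sets follow the haemoglobin share, and haemoglobin genes make up most of these sums. For those genes the split was therefore fixed in advance and is no finding. SD over SASD ratios of the red cell list were 1.06, 0.769, 0.681 and 1.23. At 6 h the red cell ratio was thus above 1 and that of the histone genes below 1. Red cell sums in SD 6, 12 and 24 h were 74855, 48416 and 65022 CPM, the lowest of these being at 12 h, where the histone sum in SD was highest. Of the platelet and red cell markers none was at 0 in any library. Their part in the histone levels was not tested.

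Mitotic markers such as Mki67 and Top2a summed to 39.8 CPM in Con, 104, 69.4, 69.5 and 95.02 CPM in SD, and 97.8, 82.2, 125, 29.7 and 49.0 CPM in SASD, with 1 of 10 (Ube2c) higher in all 7. Ube2c carried much of these sums, at 54.3 CPM in SD 6 h and 79.0 CPM in SASD 24 h, and the other 9 markers summed to 29.8 to 49.8 CPM in the 7 libraries, 34.1 CPM in Con, 89.6 CPM in SD 48 h and 27.3 CPM in SASD 48 h. The SD over SASD ratio of the mitotic list was 3.20 at 48 h (3.28 without Ube2c). That of the granulocyte precursor list, with 4 of 10 genes at 0 in some library, was 4.96. Chil3 and Lcn2 were its most abundant genes in SD 48 h, at 798 and 570 of 2287 CPM, with ratios of 2.01 and 13.2. Elane and Mpo were far scarcer, at 11.0 and 30.2 CPM. Their ratios were 78.2 and 85.7, over only 0.141 and 0.352 CPM in SASD 48 h. For the mature neutrophil list the ratio was 4.91 at 48 h and 2.82 at 24 h, a time at which the histone ratio was 0.509. The part of these cells in the histone levels was not tested. Ratios at 48 h for B, T and NK cells, monocytes and plasma cells were 0.768, 1.53, 1.002, 1.03 and 1.05.

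**Figure D5:**
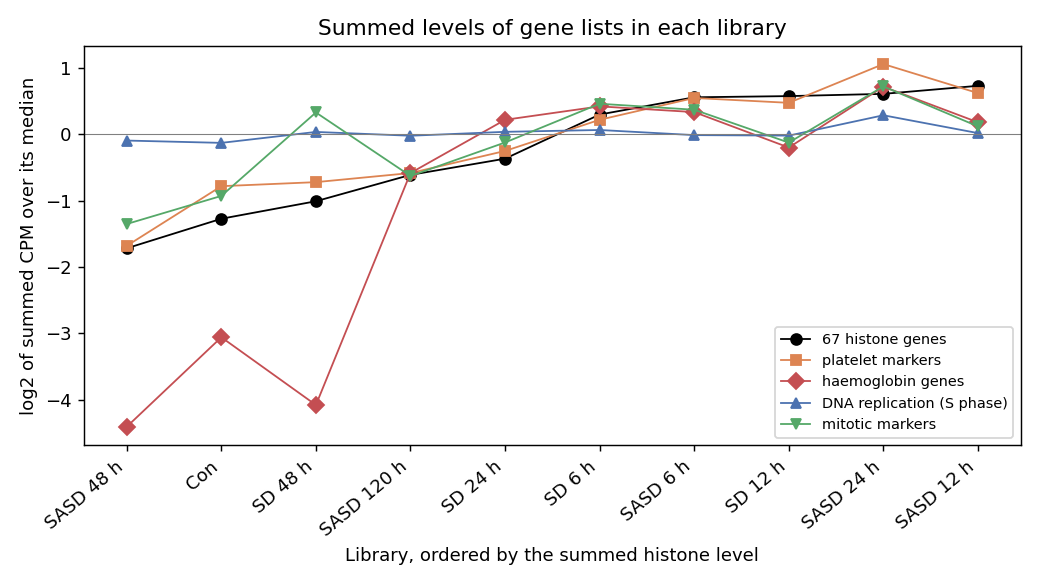
Summed level of the 67 histone genes and of 4 gene lists in each library, as the log2 of summed CPM over the list's median of 10 libraries (vertical axis), with libraries ordered by the histone level (horizontal axis). Platelet markers follow the histone order closely, haemoglobin genes are far lower in the 3 leftmost libraries, and the sum of replication genes varies least.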

How the data were processed

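The authors' trimming (Trimmomatic 0.39) and alignment (STAR 2.7.9a, build mm10) are named in the submitters' processing notes. featureCounts 2.0.3 then gave raw counts of read pairs in the exons of each gene of a 10x Genomics annotation, per the file headers. The recorded command set no strand, multi-mapping or multi-overlap option. Antisense, overlapping and near-identical genes are therefore uncertain. The authors deposited counts for 32285 genes, 127 of them without a symbol in GENCODE release 21, which gave symbols, positions and exon lengths here and may differ from the authors' annotation.

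TMM factors, CPM and quasi-likelihood fits came from edgeR 4.0.16 (R 4.3.3), for genes averaging at least 10 counts in a fit's libraries, with Benjamini-Hochberg adjustment at 0.05 over all genes. Each SE is approximate: it is the absolute log2 value divided by the square root of the quasi-likelihood F statistic. SD against SASD used 8 libraries (3 residual degrees of freedom), the SD trend 5 (3), the SASD trend 6 (4) and the difference of trends 9, without SASD 120 h (6). With 1 pool per group, p-values measure the spread between pools and times, which may be technical. Single-library ratios used no prior count, at least 25 counts on average in the pair, and exact conditional binomial (Clopper-Pearson) 95% intervals (scipy 1.17.1), which cover counting error only.

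On simulated counts, the fits recovered 59%, 5%, 7% and 18% of genes changed 2-fold and 99%, 69%, 62% and 91% of those changed 4-fold, in the order above, with 4, 0, 7 and 6 false calls over 13370, 14562, 14602 and 14138 genes. The simulation gave every gene the same assumed spread between libraries, which was not estimated from these data. Genes that vary more than assumed would be recovered less often. Recovery at the spread of the real libraries was not tested. Alternatives used DESeq2 1.42.0, limma 3.58.1, other scalings, count minimums and time scales, and left out each library or time.

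Named genes were the 4 members of each type highest in CPM per kilobase, those highest and lowest in the SD over SASD ratios, and any called. Hist1h4c, Hist1h2bj, Hist2h4, Hist4h4 and other members outside this rule were named after their values were seen. Members and lists were chosen with earlier results of these data known. The list entries Ars2 and Zcchc6 are older names of Srrt and Tut7, which were matched; Symplk was not analysed here. E2f2 and Ube2c were singled out after their values were seen.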

Additional observations from a re-analysis of the deposited data

Results flagged for a closer look

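The summed histone level in SD over SASD was below 1 at 6 h (0.835), 12 h (0.898) and 24 h (0.509) and above 1 at 48 h (1.63). These results stand out because the 2 methods differ in opposite directions at different times. Each ratio rests on 1 pool of 3 mice per side, and the difference between times was not tested.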

How the results depend on the processing

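The summed SD over SASD ratio kept its direction at each time under every alternative run. Without Hist1h1c, the member with the most counts, it was 0.783 at 6 h, 0.534 at 24 h and 1.48 at 48 h. With total counts it was 0.582 at 24 h and 1.498 at 48 h. With total counts lacking haemoglobin genes it was 0.874 at 12 h, 0.574 at 24 h and 1.498 at 48 h. The other alternatives, among them 1 chosen after seeing the data that kept only members with at most 50% of their 50-base words in other genes, moved it by less than its counting interval. The number of members called was 0 in all 4 fits under every alternative (9, 12, 13 and 16 of them), and leaving out each library or time gave 0 to 0. Over all genes, the calls under these alternatives ran from 0 to 389 (of 27180), 796 (of 14562), 1 (of 14305) and 272 (of 14138). Where a setting called no gene at all, its 0 members carry no information about the members. Medians over members moved more on leaving out a library: -0.38 to -0.01 for SD against SASD, -0.53 to 0.47 for the SD trend, -0.32 to 0.07 for the SASD trend and -0.45 to 0.07 for their difference. The cause was not tested. SD against SASD pairs the libraries by time in its design. By replicate, no paired analysis was possible because each group had 1 library and the labels give no replicate number. Precision is limited by 1 pool per group and, in 42 of 67 members, by a mean count under 10.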
